A study of Mus musculus with 4 samples.

Results

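The 90 genes described here are the keratins, claudins and desmosome genes of the mouse main olfactory epithelium (MOE), taken by symbol from the 24421 genes with deposited values. They are 45 keratins, 32 claudins and 13 desmosome genes, the last of which are 6 desmogleins, 3 desmocollins and 4 plakophilins. The basal cell keratins *Krt5*, *Krt14* and *Krt15* were left out of the choice and are given separately. The rule reads gene symbols and no measured value.

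RNA-seq was performed on cells sorted by FACS from the MOE of mice of 2 PiggyBac transgenic lines, which the labels give as C57BL/6 and the methods as made in C57BL/6J eggs. In both lines a TAAR enhancer was placed before the Hsp68 minimal promoter, with enhancer 1 driving GFP in one line and enhancer 2 driving tdTomato in the other. Cells with and without the reporter were sorted from each line, GFP in the TAAR enhancer 1-GFP mice and tdTomato in the TAAR enhancer 2-tdTomato mice, and each of the 4 sorts gave 1 library. The sort asked whether the activity of each enhancer is specific to sensory neurons that express trace amine-associated receptors (TAARs). Each line came from 1 founder, so the site of insertion is not averaged over founders. The labels call the animals adult, whereas the reporting summary gives 14 days postnatal for the enhancer 1 line and 14 to 21 days for the enhancer 2 line, with both sexes used. That summary also gives mixed C57BL/6J and 129 backgrounds for a list of mouse lines that includes both of these. The number of animals behind a library is not given in the sources used here. Line, enhancer, reporter and sort, and by the reporting summary possibly age, differ together between the lines, so these cannot be told apart.

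Keratins are the intermediate filaments of epithelial cells, and each filament pairs a type I with a type II keratin. Claudins are the membrane proteins that set which ions and solutes pass between cells at tight junctions. Desmosomes anchor keratin filaments to the membrane, through cadherins (desmogleins and desmocollins) outside and plakophilins, plakoglobin and desmoplakin inside. In the MOE these genes are known from the non-neuronal cells: sustentacular cells, Bowman gland and duct cells, basal cells and the ciliated and secretory cells of neighbouring respiratory epithelium. Olfactory sensory neurons (OSNs) join sustentacular cells at apical junctions.

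Values are in TPM, transcripts per 1000000, a level scaled by transcript length and by the total of the library, so that levels of different genes can be set side by side. Fold changes are log2 differences of reporter-positive minus reporter-negative cells on the log2(TPM + 1) scale. Where 4 values of a gene or sum follow each other, they are in the order GFP-negative, GFP-positive, tdTomato-negative and tdTomato-positive cells, and where 2 log2 fold changes do, the enhancer 1 line comes first. The pseudocount of 1 makes changes of low genes look smaller than they are. With 1 library per group no difference has a replicate check, and no error or p-value can be given. A gene is called here higher or lower when it differs by at least 2-fold on that scale, which is a description of these libraries. Genes with a mean of at least 1 TPM over the 4 libraries were considered, 15760 genes in all and 35 of the 90 members.

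The libraries differed as a whole. The number of genes above 0 TPM was between 15096 and 16840, and the 10 highest genes took 31.5% of TPM in GFP-positive cells, against 5.72% to 9.44% in the other libraries. The median log2 fold change of all genes considered was -0.85 in the enhancer 1 line and -0.20 in the enhancer 2 line. Scaling by the median ratio would raise every ratio by 0.88 and 0.16 on the log2 scale in the enhancer 1 and enhancer 2 lines. All 12 mature OSN markers examined were present, as the tissue label states, and their summed level was 28015 TPM in GFP-negative, 3091 in GFP-positive, 28835 in tdTomato-negative and 12908 in tdTomato-positive cells.

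Of the 90 members, 35 were listed at 0 in every library, 28 were above 0 in all 4, and 20 were above 0 somewhere but under the mean of 1 TPM. The 26 members that reached 10 TPM in any library were 9 keratins, 11 claudins and 6 desmosome genes. The summed level of all members was 839 TPM in GFP-negative, 3144 in GFP-positive, 1036 in tdTomato-negative and 2711 in tdTomato-positive cells. Both reporter-positive libraries were thus above both reporter-negative libraries, by 3.75-fold in the enhancer 1 line and 2.62-fold in the enhancer 2 line. In bulk samples a change in the number of cells of a type and a change in RNA per cell cannot be told apart.

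The families contributed unequally to these sums. The 45 keratins summed to 196 TPM in GFP-negative, 2256 in GFP-positive, 438 in tdTomato-negative and 1683 in tdTomato-positive cells, which is 11.5-fold and 3.85-fold higher with the reporter. For the 32 claudins the sums were 558, 711, 478 and 875 TPM in the same order, or 1.28-fold and 1.83-fold. The 13 desmosome genes came to 84.9, 176, 120.5 and 152 TPM, or 2.08-fold and 1.27-fold. In GFP-negative and tdTomato-negative cells claudins had the larger sum, and in both reporter-positive libraries keratins did. The claudin ratio of the enhancer 1 line depended on the scaling, at 0.35 on the log2 scale as deposited and 1.24 with the median-ratio scaling.

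**Figure D1:**
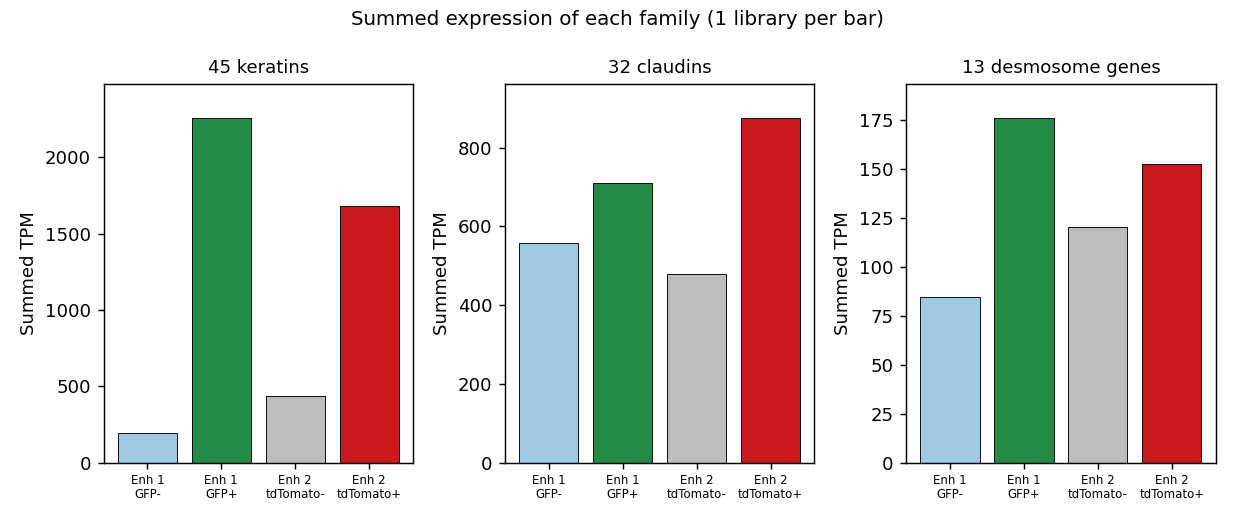
Summed TPM of the keratins, claudins and desmosome genes (y axes, linear and starting at 0, with a different range in each panel) in the 4 libraries (x axis; Enh 1, TAAR enhancer 1-GFP line; Enh 2, TAAR enhancer 2-tdTomato line; 1 library per bar, so no error is drawn). Keratins show the widest spread, from 196 to 2256 TPM, and claudins have their highest sum in tdTomato-positive cells, 875 TPM.

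In the enhancer 1 line 21 of the 35 members considered were higher in GFP-positive cells, against 12.9% of all genes considered, and 5 were lower, against 44.2%. In the enhancer 2 line 17 were higher in tdTomato-positive cells, against 15.8% of all genes, and 8 were lower, against 21.8%. The median log2 fold change was 1.72 and 0.84 over the 35 members, beside -0.85 and -0.20 over all genes. The first was 0.58 with a pseudocount of 10 and 0.75 with no filter, and the second was 0.24 with no filter. The counts of lower members fell to 2 and 3 with a pseudocount of 10. A member that is high in 1 library only can pass the mean of 1 TPM through that library, so these counts and medians describe the members that passed. Over the 28 that were above 0 in both libraries of a line, which are not the same 28 in each line, the medians were 1.85 and 1.21.

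In both lines 11 members were higher, against 7.89% of all genes. They are 52.4% of those higher in the enhancer 1 line and 64.7% of those higher in the enhancer 2 line, where the same shares over all genes considered were 61.2% and 49.9%. The 3 members lower in both lines were *Krt72*, *Cldn9* and *Cldn34c1*, against 14.5% of all genes. In the enhancer 1 line *Cldn34c1* was at -1.31 on the log2 scale as deposited and fell short of 2-fold with the median-ratio scaling, at -0.57. Opposite directions past 2-fold were found for 4 members, *Krt17*, *Cldn10*, *Cldn15* and *Pkp1*, against 3.01% of all genes. With a pseudocount of 10 none of the 4 passed 2-fold in both lines, and with the median-ratio scaling *Cldn15* was at -0.93 in the enhancer 1 line.

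**Figure D2:**
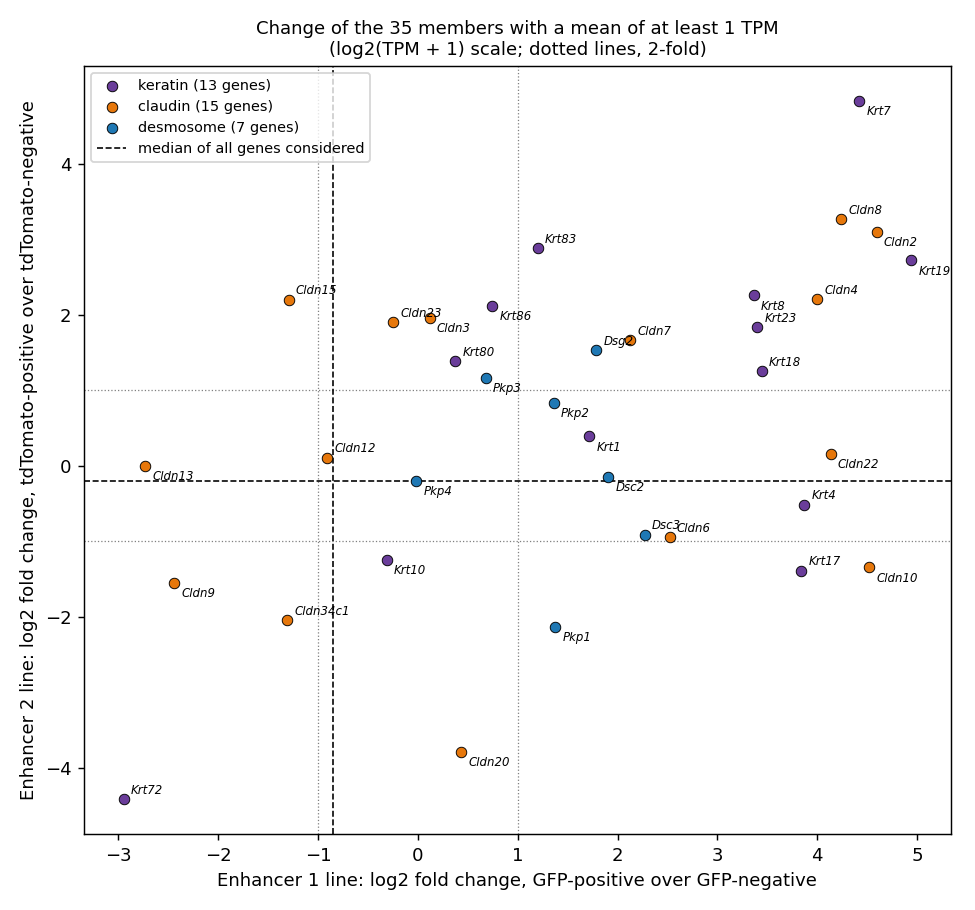
Log2 fold change of the 35 members considered, reporter-positive over reporter-negative cells, in the enhancer 1 line (x axis) and the enhancer 2 line (y axis), both on the log2(TPM + 1) scale; each point is 1 gene, dotted lines mark 2-fold and dashed lines the medians of all genes considered. The 11 members higher in both lines lie at the upper right, with *Krt7* at 4.42 and 4.84, while *Krt17* and *Cldn10* lie at the lower right.

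The keratins of simple epithelia led the keratin sum. *Krt8* and *Krt18* form the type II and type I pair of single-layered epithelia, and in the GENCODE M21 annotation of GRCm38 they lie 23697 bases apart on chromosome 15, at 101996698 to 102004482 on the minus strand and 102028180 to 102032027 on the plus strand. *Krt8* was at 56.2 TPM in GFP-negative, 588 in GFP-positive, 106 in tdTomato-negative and 509 in tdTomato-positive cells. *Krt18* was at 69.7, 769, 197 and 470.2 TPM in these libraries. Both genes were highest in GFP-positive cells, where they ranked 148 and 106 among all genes by level, and lowest in GFP-negative cells, where they ranked 4029 and 3157. The log2 fold changes were 3.36 and 2.26 for *Krt8* and 3.44 and 1.25 for *Krt18* in the enhancer 1 and enhancer 2 lines. The level of *Krt8* divided by that of *Krt18* was 0.807, 0.765, 0.536 and 1.08 in the 4 libraries, so that *Krt8* exceeded its partner only in tdTomato-positive cells. *Krt8* shares 26.9% of its 50-base transcript windows with the pseudogene *Krt8-ps*, so its value depends on how shared reads were assigned.

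*Krt19*, the smallest keratin, and *Krt7* are known from ducts and glands. *Krt19* was at 13.8 TPM in GFP-negative, 453 in GFP-positive, 36.8 in tdTomato-negative and 248 in tdTomato-positive cells, with log2 fold changes of 4.94 and 2.72. *Krt7* was at 9.24, 218, 10.7 and 334 TPM, with log2 fold changes of 4.42 and 4.84. The reporter-positive libraries were above the reporter-negative libraries for both genes. They differed in which reporter-positive library was higher, GFP-positive for *Krt19* and tdTomato-positive for *Krt7*. Among keratins, *Krt7* took 9.67% of TPM in GFP-positive and 19.8% in tdTomato-positive cells.

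*Krt23*, a further type I keratin of simple and glandular epithelia, was at 9.66 TPM in GFP-negative, 112 in GFP-positive, 7.83 in tdTomato-negative and 30.6 in tdTomato-positive cells. Its log2 fold changes were 3.40 and 1.84. All 5 simple epithelial keratins considered were thus higher in both lines, and the one left, *Krt20*, was above 0 only in GFP-positive cells, at 0.282 TPM. *Krt7*, *Krt8*, *Krt18* and *Krt19* together held 75.9% of the TPM of all keratin members in GFP-negative, 89.9% in GFP-positive, 80.0% in tdTomato-negative and 92.7% in tdTomato-positive cells. The sum of the 4 genes was 149, 2028, 350.0 and 1561 TPM. Type II members summed to 0.954, 0.605, 0.620 and 1.22 times the type I members in the 4 libraries.

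**Figure D3:**
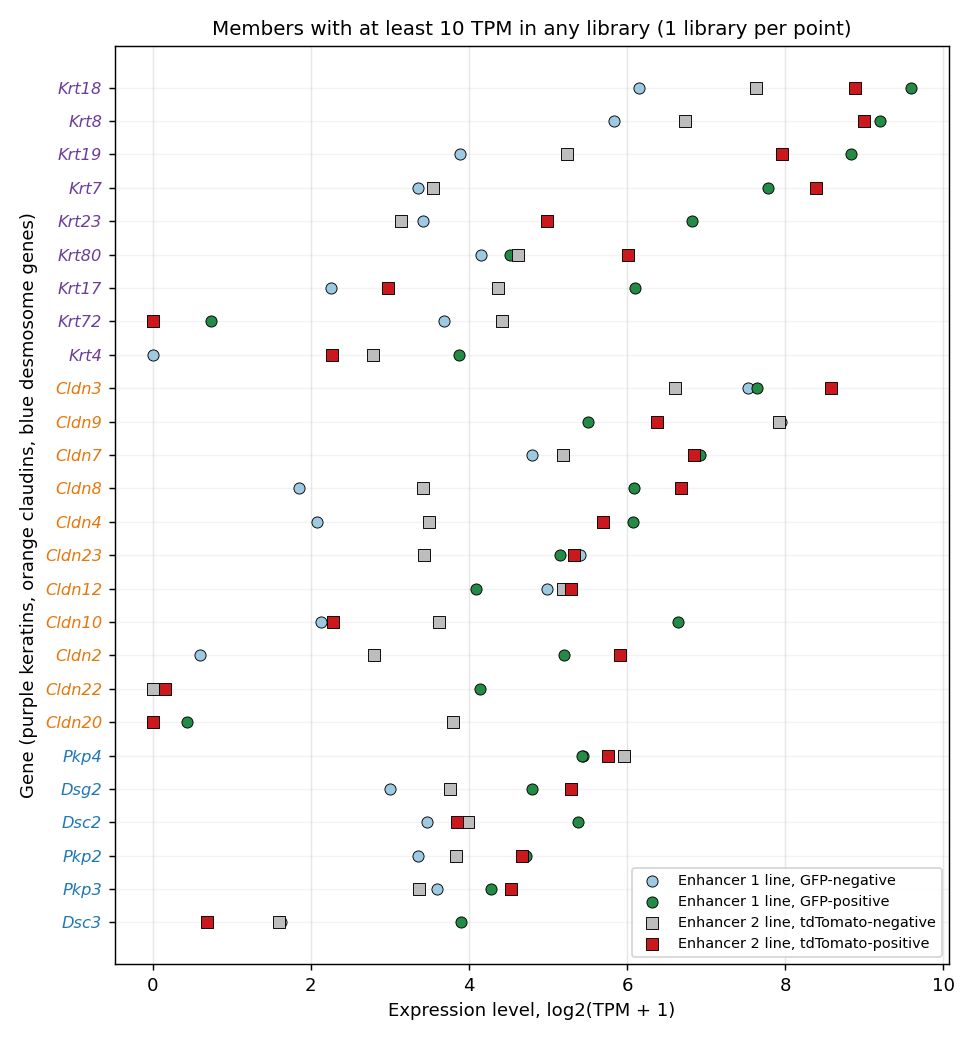
Level of the 26 members with at least 10 TPM in any library (y axis, grouped by family and ordered by mean level) on a log2(TPM + 1) scale (x axis); each point is 1 library, circles for the enhancer 1 line and squares for the enhancer 2 line. The 5 simple epithelial keratins have their reporter-positive libraries to the right, *Cldn9* has them to the left, and *Krt17*, *Cldn10* and *Dsc2* have GFP-positive cells alone to the right.

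Keratins of layered epithelia and of injury were lower and less alike in the lines. *Krt17*, which is induced in injured and growing epithelia, was at 3.77 TPM in GFP-negative, 67.4 in GFP-positive, 19.7 in tdTomato-negative and 6.88 in tdTomato-positive cells. It was 17.9-fold higher with the reporter in the enhancer 1 line and 2.86-fold lower in the enhancer 2 line, with log2 fold changes of 3.84 and -1.39. The basal cell keratins that were left out had the same order of the libraries within each line. *Krt5* was at 15.7, 199.6, 56.5 and 16.5 TPM, *Krt14* at 14.9, 118, 29.4 and 5.55 TPM, and *Krt15* at 8.81, 262, 19.5 and 3.99 TPM. Their summed log2 ratios were 3.88 and -2.02, and they held 20.4% of all keratin TPM in GFP-positive but 1.52% in tdTomato-positive cells. *Krt17* shares 3.99% of its 50-base windows with *Krt14*, *Krt15*, *Krt16* or *Krt42*, and *Krt16* and *Krt42* were listed at 0 in every library.

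*Krt80*, a type II keratin found in many epithelia, was at 16.7 TPM in GFP-negative, 22.0 in GFP-positive, 23.7 in tdTomato-negative and 63.4 in tdTomato-positive cells. As deposited, only the tdTomato-positive library stood apart, with log2 fold changes of 0.38 and 1.38. With the median-ratio scaling these were 1.22 and 1.53, past 2-fold in both lines. *Krt4*, a keratin of moist layered epithelia such as the oesophagus, was listed at 0 in GFP-negative cells and was at 13.6 TPM in GFP-positive, 5.90 in tdTomato-negative and 3.82 in tdTomato-positive cells. *Krt13*, its usual partner, was listed at 0 in all 4. Of the 13 keratins of layered epithelia and cornea, 6 were listed at 0 in every library and 4 were considered. The epidermal pair *Krt1* and *Krt10*, named after the values had been seen, reached at most 2.29 and 7.07 TPM.

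Hair and root sheath keratins made up 22 of the members, of which 13 were listed at 0 in every library and 3 were considered. *Krt72*, an inner root sheath keratin, was at 11.9 TPM in GFP-negative, 0.672 in GFP-positive and 20.4 in tdTomato-negative cells, and was listed at 0 in tdTomato-positive cells. It was the keratin member that was lower past 2-fold in reporter-positive cells of both lines. *Krt83* and *Krt86*, named after their values had been seen, were listed at 0 in the reporter-negative cells of both lines, and were at 1.30 and 0.675 TPM in GFP-positive and 6.38 and 3.35 TPM in tdTomato-positive cells. *Krt83* shares 22.1% and *Krt86* 43.3% of 50-base windows with other hair keratins, so these 2 values are uncertain. The median log2 fold change of the 3 genes (0.74 and 2.12) and the log2 ratio of the summed hair keratins (-0.89 and -0.74) differ in sign, and *Krt72* has the largest level of them.

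Among the claudins, *Cldn3* and *Cldn9* led the sum in both reporter-negative libraries, while *Cldn3* and *Cldn7* did in both reporter-positive ones. *Cldn3* and *Cldn9* together held 76.8% of claudin TPM in GFP-negative, 34.2% in GFP-positive, 70.8% in tdTomato-negative and 52.7% in tdTomato-positive cells. *Cldn3* seals tight junctions of many simple epithelia, and *Cldn9* is known from the inner ear, where it limits cation leak. *Cldn9* was at 245 TPM in GFP-negative, 44.4 in GFP-positive, 242 in tdTomato-negative and 82.1 in tdTomato-positive cells. Its level was thus nearly equal in the reporter-negative libraries and was 5.52-fold and 2.95-fold lower with the reporter. *Cldn3* was at 184, 199, 96.6 and 379 TPM, with log2 fold changes of 0.12 and 1.96. The level of *Cldn3* divided by that of *Cldn9*, which no scaling of a library changes, was 0.749 in GFP-negative, 4.48 in GFP-positive, 0.400 in tdTomato-negative and 4.62 in tdTomato-positive cells.

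*Cldn4*, like *Cldn3* a barrier-forming claudin that binds the enterotoxin of *Clostridium perfringens*, is the neighbour of *Cldn3*. *Cldn4* lies on chromosome 5 at 134945119 to 134946934 on the minus strand and *Cldn3* at 134986214 to 134987472 on the plus strand, 39279 bases apart (GENCODE M21, GRCm38). *Cldn4* was at 3.21 TPM in GFP-negative, 66.1 in GFP-positive, 10.2 in tdTomato-negative and 51.0 in tdTomato-positive cells. Its log2 fold changes were 4.0 and 2.21, whereas those of *Cldn3* were 0.12 and 1.96, so the neighbours lay far apart in the enhancer 1 line and close in the enhancer 2 line. *Cldn7*, a claudin of the lateral membrane, was at 26.8, 120.0, 35.3 and 114 TPM, with log2 fold changes of 2.12 and 1.66.

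The 250 bases before the start of these 3 genes are shown because the pair of neighbours changed unequally and *Cldn7*, a claudin that was higher in both lines, has a window at its annotated start. They are from RefSeq (GRCm38.p6) on each gene's own strand, at chr5:134946935-134947184 (minus) for *Cldn4*, chr5:134985964-134986213 (plus) for *Cldn3* and chr11:69964529-69964778 (plus) for *Cldn7*. Capitals mark matches to the AP-1 motif TGANTCA or to the GC box GGGCGG, read on either strand.
Cldn4: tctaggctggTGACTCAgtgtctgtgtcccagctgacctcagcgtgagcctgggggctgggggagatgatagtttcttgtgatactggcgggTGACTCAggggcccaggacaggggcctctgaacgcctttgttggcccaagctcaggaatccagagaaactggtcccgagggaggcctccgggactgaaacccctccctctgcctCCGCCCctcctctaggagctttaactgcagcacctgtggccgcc
Cldn3: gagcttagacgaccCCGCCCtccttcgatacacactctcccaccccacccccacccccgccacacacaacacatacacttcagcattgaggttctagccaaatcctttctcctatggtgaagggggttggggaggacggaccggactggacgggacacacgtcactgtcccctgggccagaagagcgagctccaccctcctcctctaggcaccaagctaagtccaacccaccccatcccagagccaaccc
Cldn7: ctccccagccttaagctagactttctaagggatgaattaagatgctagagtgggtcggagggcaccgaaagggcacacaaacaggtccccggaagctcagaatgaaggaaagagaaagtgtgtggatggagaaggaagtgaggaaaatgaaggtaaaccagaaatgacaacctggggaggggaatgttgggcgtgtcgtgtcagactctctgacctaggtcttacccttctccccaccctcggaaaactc
*Cldn4* had 2 AP-1 matches, beginning 240 and 158 bases before the start, and 1 GC box match beginning at 44 bases, and *Cldn3* had 1 GC box match beginning at 236 bases. The motif searches covered the 250 bases before the start of 27025 genes, of which 7.82% held TGANTCA, 35.4% GGGCGG, 14.3% the TATA box TATAAA and 2.00% the Grainyhead-like motif AACCNGTT. Of the 58 members with a RefSeq window, 6 (10.3%) held TGANTCA, 14 (24.1%) GGGCGG, 18 (31.0%) TATAAA and 1 (1.72%) AACCNGTT. Among the 18 members considered that have a window, TGANTCA was found for *Cldn4* and *Cldn15*, GGGCGG for 10 and TATAAA for 3. A gene with several annotated starts was counted when any of its windows held the motif, as for the GC box of *Cldn7*. A match describes the letters and is no site of binding.

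Claudins with opposed functions were high in the same libraries. *Cldn8*, which tightens the paracellular barrier of ducts, was at 2.61 TPM in GFP-negative, 67.1 in GFP-positive, 9.70 in tdTomato-negative and 102 in tdTomato-positive cells. *Cldn2*, which forms a pore for cations and water, was at 0.520, 35.7, 5.98 and 59.0 TPM. Both reporter-positive libraries were above both reporter-negative libraries for each gene, with log2 fold changes of 4.24 and 3.27 for *Cldn8* and 4.59 and 3.10 for *Cldn2*. In linear TPM the difference was 25.7-fold and 10.5-fold for *Cldn8* and 68.7-fold and 9.86-fold for *Cldn2*.

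*Cldn10*, whose isoforms form ion pores of either charge, was past 2-fold in opposite directions in the lines. It was at 3.35 TPM in GFP-negative, 98.8 in GFP-positive, 11.3 in tdTomato-negative and 3.84 in tdTomato-positive cells, with log2 fold changes of 4.52 and -1.35. It held 13.9% of claudin TPM in GFP-positive cells and between 0.439% and 2.37% in the other libraries. *Cldn15*, a cation pore of the intestine, had the opposite order at a low level, with 2.28, 0.336, 0.0370 and 3.77 TPM and log2 fold changes of -1.29 and 2.20.

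The remaining claudins with at least 10 TPM showed no shared direction. *Cldn12* was at 30.8 TPM in GFP-negative, 16.0 in GFP-positive, 35.5 in tdTomato-negative and 38.2 in tdTomato-positive cells, within 2-fold in both lines on the log2(TPM + 1) scale. *Cldn23* was at 41.3, 34.6, 9.80 and 39.3 TPM, so that the tdTomato-negative library was low and the other 3 were alike. Its log2 fold change in the enhancer 1 line was -0.25 as deposited and 0.61 with the median-ratio scaling, and in the enhancer 2 line it was 1.90. *Cldn22* was at 16.6 TPM in GFP-positive and 0.119 in tdTomato-positive cells, and neither reporter-negative library listed it above 0. It shares 44.7% of its 50-base windows with *Cldn24*, and its exon overlaps *Wwc2* on the other strand. *Cldn20* was at 12.9 TPM in tdTomato-negative and 0.354 in GFP-positive cells and listed at 0 in the others.

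Some low claudins were named after their values had been seen. *Cldn6* lies 137 bases from *Cldn9* on chromosome 17 and was at 0.0470 TPM in GFP-negative, 5.01 in GFP-positive, 4.86 in tdTomato-negative and 2.04 in tdTomato-positive cells, so these neighbours had opposite directions in the enhancer 1 line. *Cldn34c1* was at 9.66, 3.30 and 3.12 TPM and listed at 0 in tdTomato-positive cells, with 13.8% of its windows shared with other genes. *Cldn5*, the claudin of endothelium, was at 1.53 TPM in GFP-negative and 0.0483 in tdTomato-negative cells and listed at 0 in both reporter-positive libraries. *Cldn1*, a claudin of layered epithelia, was at 1.41, 1.54, 0.697 and 0.0182 TPM. Of the 32 claudins, 10 were listed at 0 in every library, and the 15 considered had median log2 fold changes of 0.44 and 0.16.

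Desmosome genes, the smallest family, had the lowest summed level in every library and are given from the membrane inward. *Dsg2*, the desmoglein of simple epithelia, was at 7.03 TPM in GFP-negative, 26.7 in GFP-positive, 12.5 in tdTomato-negative and 38.1 in tdTomato-positive cells. It was the desmosome member that was higher in both lines as deposited, with log2 fold changes of 1.79 and 1.53. With the median-ratio scaling *Pkp3* was higher in both lines too. *Dsg1a*, *Dsg1b*, *Dsg1c* and *Dsg4*, desmogleins of layered epithelia and hair, were listed at 0 in every library, and *Dsg3* was above 0 only in GFP-positive cells, at 0.275 TPM.

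Its desmocollin counterpart *Dsc2* was at 10.1 TPM in GFP-negative, 40.6 in GFP-positive, 14.9 in tdTomato-negative and 13.4 in tdTomato-positive cells, high in GFP-positive cells alone. *Dsc3*, a desmocollin of basal layers, was at 2.08, 13.9, 2.04 and 0.608 TPM. The log2 fold changes were 1.91 and -0.15 for *Dsc2* and 2.27 and -0.92 for *Dsc3*. The desmogleins and desmocollins considered were thus higher in the enhancer 1 line, while in the enhancer 2 line only *Dsg2* was. Between the reporter-positive libraries, *Dsg2* was at 15.2% of desmosome TPM in GFP-positive and 25.0% in tdTomato-positive cells, and *Dsc2* at 23.1% and 8.79%.

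The plakophilins tie the cadherins to desmoplakin. *Pkp1*, a plakophilin of layered epithelia, was at 2.83 TPM in GFP-negative, 8.91 in GFP-positive, 6.12 in tdTomato-negative and 0.619 in tdTomato-positive cells, with log2 fold changes of 1.37 and -2.14. *Pkp2*, which is found in simple epithelia and heart, was at 9.25, 25.3, 13.2 and 24.4 TPM, with log2 fold changes of 1.36 and 0.84. *Pkp3*, found in most epithelia, was at 11.1, 18.4, 9.33 and 22.2 TPM, with log2 fold changes of 0.68 and 1.17. For *Pkp2* and *Pkp3* both reporter-positive libraries were above both reporter-negative ones, though each passed 2-fold in 1 line only as deposited. With the median-ratio scaling *Pkp3* passed it in both lines, at 1.51 and 1.30, and with a pseudocount of 10 neither gene passed it in any line. *Pkp4*, which also sits at adherens junctions and in cells without desmosomes, was at 42.5, 42.0, 61.1 and 53.1 TPM. It was the highest desmosome member in every library and had log2 fold changes of -0.02 and -0.20, the first of which turned to 0.85 with the median-ratio scaling. The 7 desmosome genes considered had medians of 1.37 and -0.15 for the log2 fold change in the enhancer 1 and enhancer 2 lines, and the summed log2 ratio of the latter, 0.34, has the other sign.

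Other junction genes were taken from lists that hold no member. Of all genes considered, 12.9% were higher and 44.2% lower in the enhancer 1 line. In the enhancer 2 line 15.8% were higher and 21.8% lower, and the counts of each list are to be read beside these shares. Of 5 further desmosome and plaque genes, 3 were higher and none lower in each line, with median log2 fold changes of 1.27 and 1.01. *Dsp*, desmoplakin, was at 7.44 TPM in GFP-negative, 51.3 in GFP-positive, 16.4 in tdTomato-negative and 90.1 in tdTomato-positive cells, and *Perp*, a desmosome membrane protein, at 15.8, 170.0, 33.4 and 68.1 TPM. The reporter-positive libraries were above the reporter-negative ones for both. *Jup*, plakoglobin, was at 65.8, 54.6, 88.4 and 104 TPM and *Ppl*, periplakin, at 38.5, 20.4, 33.9 and 61.6 TPM, within 2-fold in both lines.

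Of 14 tight junction genes other than claudins, 5 were higher and 2 lower in the enhancer 1 line, against 12.9% and 44.2% of all genes. In the enhancer 2 line 3 were higher and none lower, against 15.8% and 21.8%. The medians were 0.52 and 0.36. *Tjp3*, a scaffold protein, was at 20.9 TPM in GFP-negative, 70.3 in GFP-positive, 11.8 in tdTomato-negative and 94.8 in tdTomato-positive cells. *Marveld3*, a membrane protein of the occludin family, was at 3.07, 20.7, 0.876 and 25.6 TPM. Both were higher in both lines, while *Marveld2*, tricellulin, had log2 fold changes of -1.09 and -0.11 and the polarity gene *Pard6b* -1.47 and -0.59.

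Of 6 adherens junction genes, 1 was higher in the enhancer 1 line and 2 in the enhancer 2 line, against 12.9% and 15.8% of all genes. None was lower, and the medians were 0.10 and 0.42. The gene that stood apart was *Cdh1*, E-cadherin, at 12.9 TPM in GFP-negative, 206 in GFP-positive, 40.9 in tdTomato-negative and 354 in tdTomato-positive cells. *Ctnna1* had log2 fold changes of 0.15 and 1.02, *Ctnnb1* -0.11 and 0.49 and *Cdh3* -0.97 and -0.31. Of 8 hemidesmosome and basal adhesion genes, 5 were higher and 1 lower in the enhancer 1 line and 2 were higher and none lower in the enhancer 2 line, with medians of 1.94 and 0.47. *Itgb4* had log2 fold changes of 2.34 and 1.42, against -1.31 and 0.27 for *Dst* and -0.48 and -0.62 for *Lama3*.

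Of 12 transcription and splicing factors of epithelia that were considered, 10 were higher and none lower in the enhancer 1 line, and 6 were higher and 3 lower in the enhancer 2 line. The medians were 2.52 and 0.88. *Grhl2*, a Grainyhead-like factor of epithelial junction genes, was at 1.39 TPM in GFP-negative, 53.3 in GFP-positive, 4.12 in tdTomato-negative and 89.3 in tdTomato-positive cells. *Elf3*, an epithelial ETS factor, was at 4.30, 164, 51.7 and 182 TPM. Both were higher with the reporter in both lines, whereas *Esrp1* had log2 fold changes of 0.25 and 0.40 and *Klf4* -0.10 and -0.46. Of 9 cornified envelope genes in the deposited values, 4 were listed at 0 in every library and 2 were considered, *Sprr1a* with log2 fold changes of 4.25 and 0.20 and *Sbsn* with -1.65 and 1.65.

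**Figure D4:**
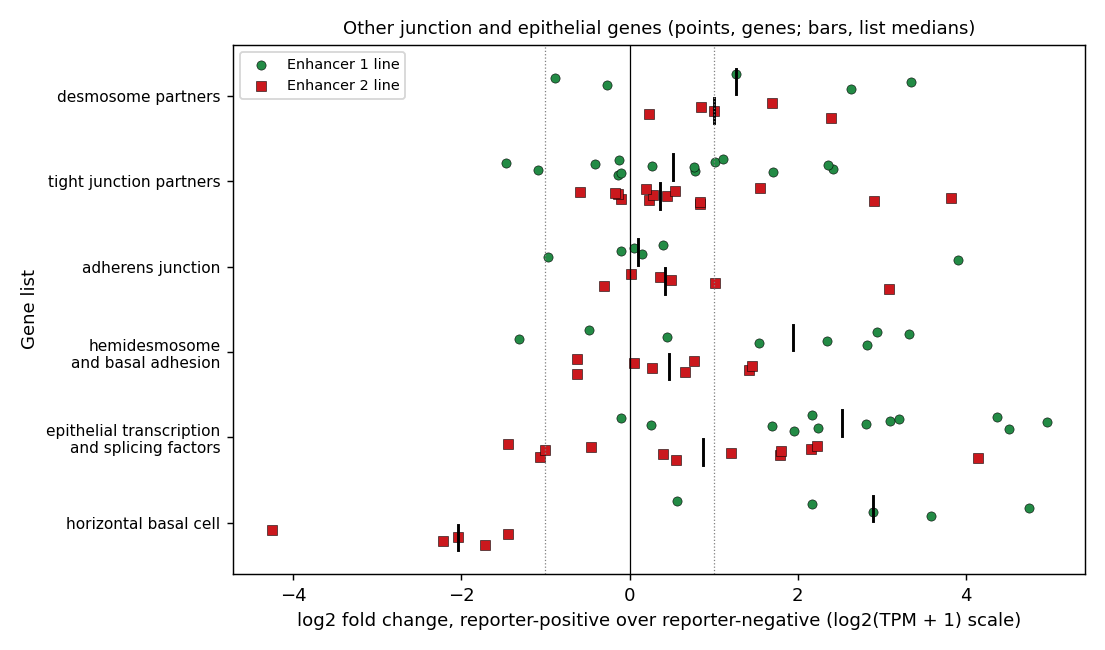
Log2 fold change on the log2(TPM + 1) scale (x axis), reporter-positive over reporter-negative cells, of the genes of 6 lists (y axis); each point is 1 gene with a mean of at least 1 TPM, circles for the enhancer 1 line and squares for the enhancer 2 line, black bars are list medians and dotted lines mark 2-fold. The horizontal basal cell list, which holds the keratins that were left out, has medians of 2.90 and -2.04, while the junction lists have medians of 0.10 to 1.94.

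Marker lists of the cell types of the tissue also differed between the libraries, in directions that were not the same for every list. Their part in the keratin, claudin and desmosome results was not tested. Of all genes considered, 12.9% were higher and 44.2% lower in the enhancer 1 line, and 15.8% were higher and 21.8% lower in the enhancer 2 line. Horizontal basal cell markers, which include *Krt5*, *Krt14* and *Krt15*, were higher for 4 of 5 genes in the enhancer 1 line and lower for 5 of 5 in the enhancer 2 line, with summed levels of 63.0 TPM in GFP-negative, 629 in GFP-positive, 152 in tdTomato-negative and 29.1 in tdTomato-positive cells. This is the direction of *Krt17*, *Cldn10* and *Pkp1* in each line, but it is not particular to the basal cell list. The sustentacular, Bowman gland and respiratory secretory lists also hold genes that were higher in the enhancer 1 line and lower in the enhancer 2 line. Sustentacular cell markers were higher for 8 of 8 genes in the enhancer 1 line, and 3 were higher and 3 lower in the enhancer 2 line, with summed levels of 601, 3281, 902 and 3248 TPM. Bowman gland markers, of which *Krt18* is one, were higher for 8 of 8 genes in the enhancer 1 line, and 5 were higher and 3 lower in the enhancer 2 line. Their summed levels were 2102, 83355, 2839 and 2476 TPM, so that in the enhancer 2 line the sum was lower while the median log2 fold change was 2.17.

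Multiciliated cell markers were higher for 8 of 10 genes in the enhancer 1 line and 10 of 10 in the enhancer 2 line, with summed levels of 674 TPM in GFP-negative, 3125 in GFP-positive, 598 in tdTomato-negative and 10113 in tdTomato-positive cells. Respiratory secretory cell markers were higher for 6 of 6 genes considered in the enhancer 1 line, and 5 were higher and 1 lower in the enhancer 2 line, with summed levels of 1174, 65473, 7804 and 63147 TPM. The defining club cell genes *Scgb1a1* and *Scgb3a2* were listed at 0 in every library. Ionocyte and microvillar cell markers summed to 178, 625, 855 and 618 TPM, with 4 of 8 higher and 2 lower in the enhancer 1 line and none higher and 4 lower in the enhancer 2 line. The 12 mature OSN markers were all lower in GFP-positive cells and 7 of 12 were lower in tdTomato-positive cells, and of 6 immature OSN markers 6 and 4 were lower.

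Leukocyte markers were lower for 6 of 6 genes in both lines, with summed levels of 2166 TPM in GFP-negative, 46.6 in GFP-positive, 1989 in tdTomato-negative and 68.6 in tdTomato-positive cells. Endothelial markers summed to 51.6, 1.72, 42.9 and 6.43 TPM, with 2 of 2 genes considered lower in the enhancer 1 line and 1 of 2 in the enhancer 2 line. Of 6 fibroblast markers 3 were higher and 2 lower in the enhancer 1 line and none passed 2-fold in the enhancer 2 line. *Krt72*, *Cldn9* and *Cldn34c1* were picked as lower in both lines, so by that choice they share the direction of any marker that was lower. Such markers are found in the leukocyte, endothelial, mature OSN, immature OSN and ionocyte and microvillar lists, and no cell type is singled out. Of 4 ensheathing glia markers considered 1 was higher and 2 lower in the enhancer 1 line, and 3 were higher and 1 lower in the enhancer 2 line.

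The lines were also set side by side within each sort. Between the reporter-negative libraries, 12 of the 35 members considered were higher in the enhancer 2 line and 4 were lower, against 10.5% and 10.2% of all genes considered, with a median log2 difference of 0.51 against 0.04 over all genes. Between the reporter-positive libraries 5 were higher in the enhancer 2 line and 9 were lower, against 32.6% and 9.51% of all genes considered, with a median difference of -0.08 against 0.62 over all genes. Line, enhancer, reporter, sort and possibly age cannot be told apart in these differences.

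By position, 89 of the 90 members were found in GENCODE M21. The keratin clusters account for most of the 24 members on chromosome 11 and the 21 on chromosome 15, chromosome 18 holds the 9 desmogleins and desmocollins, and 10 members lie on chromosome X. *Krt7* (101411043 to 101430313) is on chromosome 15, as are *Krt8* and *Krt18*. *Krt23* (99477974 to 99493137), *Krt19* (100140810 to 100148665) and *Krt17* (100256217 to 100261029) lie on the minus strand of chromosome 11, with other keratins between them. Of these genes *Krt19* and *Krt23* were higher in both lines and *Krt17* had opposite directions. The number of members above 0 TPM was 36 in GFP-negative, 51 in GFP-positive, 36 in tdTomato-negative and 37 in tdTomato-positive cells. Over all genes it was 16386, 16840, 15665 and 15096 in the same order. In these libraries 13, 24, 18 and 19 members reached 10 TPM.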

How the data were processed

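The labels describe 4 RNA-seq libraries of FACS-sorted MOE cells, 1 per group. The authors deposited TPM values, listed by symbol, for 24421 genes, and each library sums to 1000000 TPM, so that the depth is unknown and no interval or detection limit can be given. The methods name Hisat2, Cufflinks and featureCounts with mm10, while the submitters' processing notes list Trimmomatic 0.36, Salmon 1.4.0 and mm10. The step that gave the TPM values and the gene annotation are not given in the sources used here. Smart-seq2 is the library procedure in the methods, whereas extraction and library kits of another maker are in the labels. Every column of values was matched to a sample by its name.

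Members were selected by symbol, and members and gene lists were chosen with earlier results of these data known. Log2 fold changes used a pseudocount of 1, and genes with a mean of at least 1 TPM over the 4 libraries were considered, a 2-fold difference being called. With 1 library per group no test was made. The named genes are members with at least 10 TPM in any library, members past 2-fold in opposite directions in the lines, *Krt5*, *Krt14* and *Krt15*, and from each list of junction and epithelial genes up to 4 genes, those with the highest and lowest mean log2 fold change of both lines. Members under 10 TPM in every library that are not past 2-fold in opposite directions are outside this rule and were named after their values had been seen, and 1 gene that the rule names is not reported here. Cell type lists are given by counts and sums. *Trp63* and *Sox10* are in 2 lists each, and *Krt18* is a member and a Bowman gland marker. Symbols not found in the deposited values were *Pals1*, *Patj*, *Nectin1*, *Nectin2*, *Nectin4*, *Afdn* and *Flg*.

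Alternatives were pseudocounts of 0.1 and 10, a mean of at least 5 TPM or no filter, a 4-fold difference, 2 other scalings (the median ratio over 11943 genes, and rescaling after removal of 24 genes, the 10 highest of each library together), and sums without the highest member. Positions are from GENCODE M21 (GRCm38) and promoters from RefSeq (GRCm38.p6). The calculation was tested on simulated data. Python 3.11.15, NumPy 2.4.6, pandas 2.3.3 and matplotlib 3.10.9 were used. The other experiments of the study were not analysed here.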

Additional observations from a re-analysis of the deposited data

Results flagged for a closer look

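Opposite directions past 2-fold in the enhancer 1 and enhancer 2 lines were found for 4 members, each from 1 library per group, and the difference between the lines was not tested. The log2 fold change, reporter-positive over reporter-negative cells, was 3.84 in the enhancer 1 line and -1.39 in the enhancer 2 line for *Krt17*. For *Cldn10* it was 4.52 and -1.35. For *Pkp1* it was 1.37 and -2.14. *Cldn15* had the reverse order, with -1.29 and 2.20, at levels of at most 3.77 TPM. The signs remained opposite for all 4 genes with pseudocounts of 0.1 and 10 and with both other scalings. With the pseudocount of 10 none of the 4 passed 2-fold in both lines, and with the median-ratio scaling *Cldn15* was at -0.93 and 2.09. *Krt17* had 3.99% of its 50-base windows in common with other keratins, and *Cldn10* had none in common with another gene.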

How the results depend on the processing

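No log2 fold change past 2-fold of the 35 members considered changed sign with the other pseudocounts and scalings, nor did the median over all members considered or the summed ratios of the 3 families. *Cldn23*, *Pkp4* and *Krt10*, within 2-fold in the enhancer 1 line, turned from -0.25, -0.02 and -0.31 to 0.61, 0.85 and 0.33 with the median-ratio scaling and to 0.24, 0.48 and 0.05 with the rescaling. *Cldn34c1* in that line went from -1.31 to -0.56 with a pseudocount of 10, -0.57 with the median-ratio scaling and -0.92 with the rescaling. The count of members lower in the enhancer 1 line fell from 5 to 2 with a pseudocount of 10, 2 with a mean of at least 5 TPM, 3 with the median-ratio scaling and 3 at 4-fold. In the enhancer 2 line the count of lower members went from 8 to 3 with a pseudocount of 10, 4 with a mean of at least 5 TPM and 4 at 4-fold, and that of higher members from 17 to 9 at 4-fold. The median log2 fold change of members in the enhancer 1 line was 1.72, against 0.58 with a pseudocount of 10 and 0.75 with no filter, and in the enhancer 2 line it was 0.84, against 0.24 with no filter, where every member above 0 in either library of the line enters. The median-ratio scaling, which adds 0.88 to every log2 ratio of the enhancer 1 line by construction, gave summed ratios of 4.41 for keratins, 1.24 for claudins and 1.94 for desmosome genes, and without *Pkp4* the desmosome ratio was 1.66. The other 43 values of counts, medians and sums moved by less than 1.5 times, as did 196 values of single genes, while 84 single-gene values moved further. The depth behind each TPM value is unknown, which limits what can be said of members at low levels. Fold changes are within a line, and a fit over both lines with the line as a block was not run, since enhancer and reporter differ between them.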
